A study of Mus musculus with 8 samples.

Results

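Genes that mark erythroid cells and megakaryocytes were examined in spleen B cells (B splenocytes) of lymphoma mice and of wild type mice. The set holds 29 named genes: receptors and transcription factors of red cell development, hemoglobin and membrane genes of the red cell, and the granule proteins, integrins and glycoproteins of megakaryocytes and platelets. A gene was taken into the set where the platform annotation gave its symbol to an array feature, and where it had several, the brightest by its mean over the 8 arrays stood for it. This gave 27 members, which carried 49 features, of 19087 genes on the array. Ahsp and Gp1ba were not analysed here. Lymphoma cells came from 4 mice labelled c-myc/Cdk4(R24C), which combine c-myc with the R24C form of the cell cycle kinase Cdk4, a form that escapes INK4 inhibitors. Controls came from 4 mice labelled wt. All 8 mice are given as C57BL/6, no other treatment or allele is named for either group, and the sources used here give neither the promoter that drives c-myc nor an age. Each mouse gave 0.5 µg of polyA RNA, labelled with Cy3, on 1 array, so n = 4 in each group, and precision is limited by this number. The comparison is lymphoma against wild type, and here it asks how much erythroid and megakaryocytic RNA the 2 kinds of B cell preparation carried.

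Red cells and platelets arise from a shared progenitor under GATA1, which works with TAL1, and in red cell precursors also with KLF1. Erythropoietin binds its receptor EPOR on early precursors, and later stages fill with globin, heme and a membrane skeleton of spectrin and ankyrin anchored to the anion exchanger band 3. Megakaryocytes load granules with the chemokines PF4 and PPBP and carry the integrin αIIbβ3 and the glycoprotein Ib-IX-V complex. The mouse spleen, unlike the adult human spleen, normally holds erythroblasts and megakaryocytes, and its red pulp macrophages clear old red cells.

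Arrays were set to a common 75th percentile, and all levels below are log2 intensities on that scale. A background bound was placed on each array at the 95th percentile of 1113 features for olfactory and vomeronasal receptors, genes of chemosensory neurons. The bound lay between 7.20 and 7.38 in lymphoma and between 7.17 and 7.45 in wild type. By its construction it lets 5% of those receptor features through on an array, and 2.61% of them lay above it on at least 4 arrays. All 7 measured B cell markers lay above the bound on all 8 arrays, at very different levels. Ms4a1, which encodes CD20, ranged over 15.47 to 16.28 in lymphoma and 15.16 to 16.13 in wild type, and on 5 arrays it reached 80% of the brightest intensity of the array. Pax5, the B cell identity factor, ranged over 7.59 to 8.69 in lymphoma and 8.33 to 9.74 in wild type. The array of wild type 1 lay nearer to the lymphomas (mean correlation over features 0.963) than to the other controls (0.941), and values without it are given below. It was singled out by these same data, and leaving out a control that resembles the lymphomas tends to widen differences. Adjusted p-values from limma without wild type 1 are therefore no separate support. In that fit 8.15% of all genes passed, against 2.09% with all 8 arrays. Lymphoma 1 and 2 shared slide 1 with wild type 1 and 2, and the other 4 arrays shared slide 2. Fits within 1 slide therefore rest on n = 2 in each group, and slide 1 holds wild type 1.

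Of the 27 members, 12 lay above the bound on at least 4 arrays, 7 on 1 to 3 arrays and 8 on none. Of all 19087 genes, 10585 lay above it on at least 4 arrays, 2581 on 1 to 3 and 5921 on none. Members above it on all 8 arrays were Epor, Alas2, Car2, Slc4a1, Tspan33 and Itgb3. With the bound at the 99th percentile of the receptor features, 4 members (Epor, Alas2, Car2 and Itgb3) stayed above it on at least 4 arrays, and 18 were above it on none. No member passed an adjusted p of 0.05 in limma. Of all genes 2.09% passed, and 1.27% passed as lower in lymphoma, shares at which few or no calls would fall among 27 genes. At an unadjusted p under 0.05 there were 9 members, 8 lower and 1 higher in lymphoma. Over all genes 15.9% reached that level, and 7.73% of all genes did so with a lower lymphoma mean. The excess of the members over that share was not tested. The median difference of the 27 members was -0.15, against 0.06 over all genes. The 4 lymphoma values lay wholly to one side of the 4 wild type values in 3 members, against 9.99% of all genes. These were Itgb3 and Gp9, lower in lymphoma, and Sptb, higher. Of these, Gp9 had 7 of its 8 values at background. Messenger RNA of a mixed preparation was measured, so that fewer cells of a type and less RNA in each of them cannot be told apart.

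**Figure D1:**
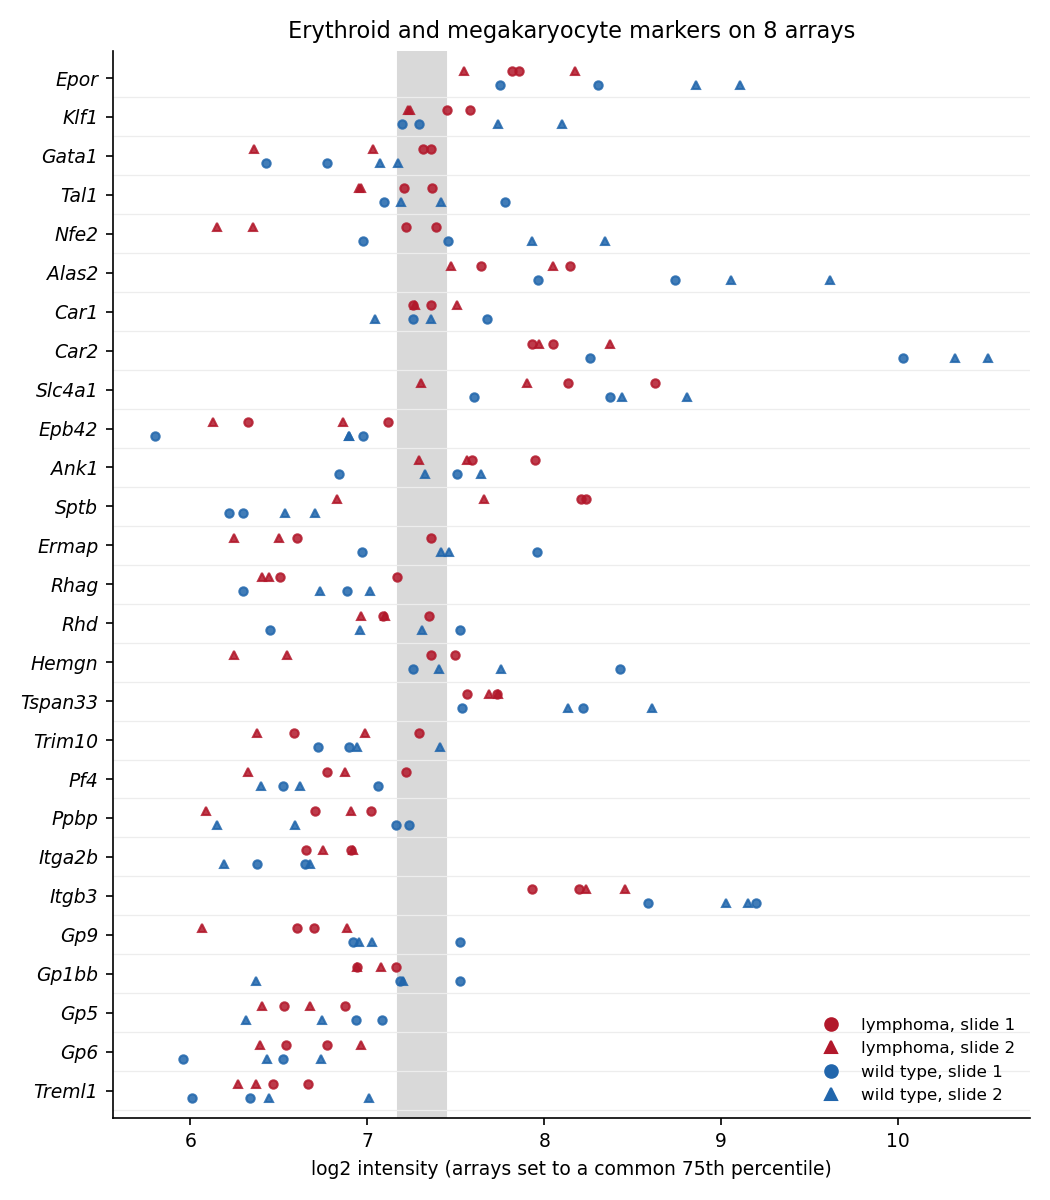
Log2 intensity of the brightest feature of each of the 27 members, with lymphoma arrays in red above wild type arrays in blue, circles for slide 1 and triangles for slide 2. The grey band spans the background bounds of the 8 arrays, 7.17 to 7.45, and the points of Epor, Alas2, Car2, Slc4a1, Tspan33 and Itgb3 lie above the bound of their own array throughout.

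Among the regulators, Epor, which encodes the erythropoietin receptor, was the only gene above the bound on every array. It read 7.86, 7.82, 7.54 and 8.18 in lymphoma 1 to 4 and 8.30, 7.75, 8.86 and 9.11 in wild type 1 to 4. The highest values belonged to both controls of slide 2, and the groups overlapped through wild type 2 alone. The lymphoma mean was 7.85 ± 0.26 and the wild type mean 8.51 ± 0.60 (SD), which differ by -0.66 ± 0.30 (SE, adjusted p 0.339). Within slide 1 it was -0.19 and within slide 2 it was -1.12 (adjusted p 0.0902).

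Klf1, the activator of adult globin genes, read 7.45, 7.58, 7.23 and 7.24 in lymphoma and 7.19, 7.29, 7.74 and 8.10 in wild type. The slides disagreed in sign for it, with 0.27 on slide 1 and -0.68 on slide 2, and over all arrays the difference was -0.21 ± 0.24 (adjusted p 0.751). Nfe2, the subunit of a transcription factor needed for platelet release, was above the bound on 1 lymphoma array and 3 wild type arrays. Its levels were 7.22, 7.39, 6.35 and 6.15 in lymphoma and 7.46, 6.97, 7.93 and 8.34 in wild type, a difference of -0.90 ± 0.36 (adjusted p 0.265). That difference came from slide 2, where it was -1.88 (adjusted p 0.0217), while slide 1 gave 0.09. Within slide 2 alone 6.75% of all genes passed. Gata1, the master regulator of both lineages, had 10 features. Its brightest was above the bound on lymphoma 1 alone, at 7.36, 3 others were above it on 1 or 2 other arrays, and 6 on none. Tal1, its partner, was above it on wild type 2 and 4 alone, at 7.78 and 7.42, against 6.96 to 7.37 over the lymphomas.

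RefSeq windows of 250 bases before to 50 bases after the gene start (GRCm38.p6) were at hand for 21 of the 27 members, 22 windows in all because Tal1 has several starts. Car1, Car2, Slc4a1, Ank1, Nfe2 and Itgb3 had none. The windows were searched on both strands for the GATA motif (A or T, then GATA, then A or G), and for CACCC, the core of the KLF1 motif. The GATA motif was found in 15 of the 22 windows and in 29.8% of all 32851 windows. CACCC was found in 15 of the 22 and in 57.5% of all. The following windows belong to the 6 members with a window and an unadjusted p under 0.05, of which Sptb had the higher lymphoma mean, and capitals mark the GATA motif on either strand.
Alas2 (chrX:150547167-150547466, plus strand): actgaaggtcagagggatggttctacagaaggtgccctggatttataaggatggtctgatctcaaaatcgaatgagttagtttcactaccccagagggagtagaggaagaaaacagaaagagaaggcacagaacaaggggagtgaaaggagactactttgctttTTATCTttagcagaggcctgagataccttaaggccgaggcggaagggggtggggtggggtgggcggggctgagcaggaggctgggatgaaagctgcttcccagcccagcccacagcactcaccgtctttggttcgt
Epor (chr9:21963527-21963826, minus strand): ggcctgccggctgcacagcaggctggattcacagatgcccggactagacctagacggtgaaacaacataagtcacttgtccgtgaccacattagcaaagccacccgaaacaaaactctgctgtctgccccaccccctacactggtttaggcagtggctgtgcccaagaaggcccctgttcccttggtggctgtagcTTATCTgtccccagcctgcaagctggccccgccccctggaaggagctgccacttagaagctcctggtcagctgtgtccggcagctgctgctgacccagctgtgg
Ermap (chr4:119189946-119190245, minus strand): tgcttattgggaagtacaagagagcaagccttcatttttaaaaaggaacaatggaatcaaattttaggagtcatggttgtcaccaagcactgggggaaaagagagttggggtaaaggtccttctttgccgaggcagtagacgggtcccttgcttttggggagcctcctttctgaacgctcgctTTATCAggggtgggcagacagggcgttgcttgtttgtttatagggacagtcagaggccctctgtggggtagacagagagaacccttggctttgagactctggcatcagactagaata
Hemgn (chr4:46404134-46404433, minus strand): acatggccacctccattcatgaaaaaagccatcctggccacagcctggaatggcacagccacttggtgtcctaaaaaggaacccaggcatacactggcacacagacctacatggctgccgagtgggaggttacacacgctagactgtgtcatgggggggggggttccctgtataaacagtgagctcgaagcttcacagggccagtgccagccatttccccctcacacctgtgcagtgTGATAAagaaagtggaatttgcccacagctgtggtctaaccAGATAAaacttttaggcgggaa
Sptb (chr12:76710498-76710797, minus strand): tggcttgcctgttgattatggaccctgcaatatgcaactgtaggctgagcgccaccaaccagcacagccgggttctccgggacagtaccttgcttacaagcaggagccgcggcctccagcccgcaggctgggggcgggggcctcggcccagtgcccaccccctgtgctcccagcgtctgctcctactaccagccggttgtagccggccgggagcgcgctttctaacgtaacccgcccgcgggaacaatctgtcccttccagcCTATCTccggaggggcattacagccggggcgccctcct
Gp9 (chr6:87777820-87778119, plus strand): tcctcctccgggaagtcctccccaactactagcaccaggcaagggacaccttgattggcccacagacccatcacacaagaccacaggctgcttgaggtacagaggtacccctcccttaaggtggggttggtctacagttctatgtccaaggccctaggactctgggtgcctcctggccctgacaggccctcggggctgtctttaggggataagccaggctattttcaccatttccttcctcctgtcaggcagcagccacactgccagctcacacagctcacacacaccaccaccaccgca
The motif began 86 bases before the start of Alas2, 54 before that of Epor and 67 before that of Ermap. Hemgn held it 13 bases before and 28 bases after its start, and Sptb 12 bases after. The window of Gp9 held none. A match in the letters shows no binding, and no match says only that these letters are not in the window.

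Car2 and Alas2 had the largest differences among the erythroid members that were lower in lymphoma. Car2 encodes carbonic anhydrase II, abundant in red cells and present in many other cells. Its levels were 7.93, 8.05, 8.37 and 7.97 in lymphoma and 8.26, 10.03, 10.32 and 10.51 in wild type. Wild type 2, 3 and 4 stood apart above all other arrays, and wild type 1 fell within the lymphoma range. The means were 8.08 ± 0.20 in lymphoma and 9.78 ± 1.03 in wild type (SD, n = 4), a 3.25-fold lower intensity in lymphoma (log2 difference -1.70, 95% interval -2.61 to -0.78, adjusted p 0.0709). It was -1.15 within slide 1 and -2.24 within slide 2 (adjusted p 0.0153). Leaving out wild type 1 moved it to -2.21 (adjusted p 2.95e-04), in a fit where 8.15% of all genes passed. It passed as well with trend and robust estimation (adjusted p 0.0454).

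Alas2, the first and rate-limiting enzyme of heme synthesis in red cell precursors, read 8.14, 7.65, 7.48 and 8.05 in lymphoma and 7.97, 8.74, 9.06 and 9.61 in wild type. Again wild type 1 lay among the lymphomas while the other controls lay above them. The means were 7.83 ± 0.32 in lymphoma and 8.84 ± 0.69 in wild type (SD), a difference of -1.02 ± 0.33 (SE, adjusted p 0.164). It was -0.46 within slide 1 and -1.57 within slide 2 (adjusted p 0.0509), and -1.31 once wild type 1 was left out (adjusted p 0.0159). Car1, carbonic anhydrase I of late red cell precursors, read 7.36, 7.26, 7.51 and 7.27 in lymphoma and 7.26, 7.67, 7.04 and 7.36 in wild type. The groups overlapped around the bound. Its difference was 0.01 with a 95% confidence interval of -0.44 to 0.47.

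**Figure D2:**
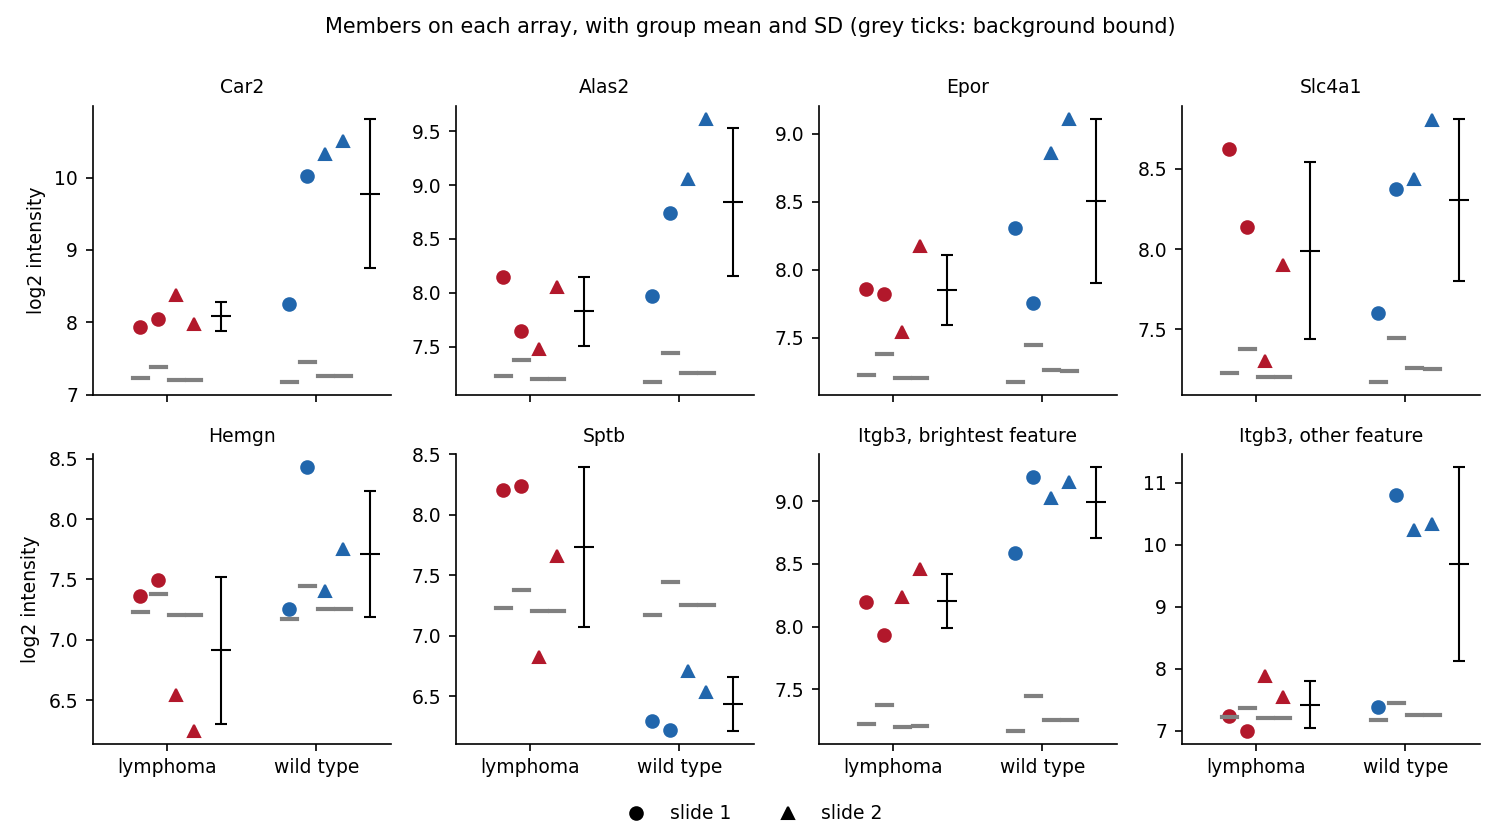
Log2 intensity of 6 erythroid members and of the 2 features of Itgb3 on each array, lymphoma left and wild type right, circles for slide 1 and triangles for slide 2. Black bars give the group mean and SD (n = 4), grey ticks the background bound of each array, and the vertical axes differ between panels. Car2 reads 7.93 to 8.37 in lymphoma and 10.03 to 10.51 in wild type 2 to 4, while wild type 1 lies at 8.26.

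The membrane genes of the red cell did not move in 1 direction. Slc4a1, which encodes band 3, the chloride and bicarbonate exchanger, read 8.63, 8.14, 7.30 and 7.90 in lymphoma and 7.60, 8.37, 8.44 and 8.81 in wild type. Lymphoma 1 was higher than 3 of the 4 controls, and the means differed by -0.31 ± 0.32 (adjusted p 0.704). Its sign differed between slides, at 0.39 on slide 1 and -1.02 on slide 2. Ank1, the ankyrin that ties band 3 to spectrin, read 7.95, 7.59, 7.29 and 7.56 in lymphoma and 6.84, 7.51, 7.33 and 7.64 in wild type. It differed by 0.27 ± 0.24 (adjusted p 0.660), and on slide 2 by -0.06. Ank1 had 5 features, and these values are of the brightest. Another, above the bound on 3 arrays, differed by -0.20, and the remaining ones lay at background on all arrays. The mean of all Ank1 features differed by 0.04 (adjusted p 0.939).

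Sptb, the beta subunit of red cell spectrin, was the only member with a higher lymphoma mean at an unadjusted p under 0.05. Its brightest feature read 8.21, 8.24, 6.83 and 7.66 in lymphoma and 6.30, 6.22, 6.71 and 6.53 in wild type. Every control and lymphoma 3 lay at background, so the intensity was at least 1.37-fold higher in lymphoma, and the log2 difference was 1.29 ± 0.31 (adjusted p 0.0630). The adjusted p was 0.0300 with lymphoma 3, the lymphoma at background, left out, and 0.161 to 0.172 with any other lymphoma left out. Lymphoma 3 was the lowest lymphoma by these same values. Leaving it out therefore widens the difference, here to 1.60, and is no separate support. With trend and robust estimation on all 8 arrays the adjusted p was 0.0299. The difference was 1.965 within slide 1 (adjusted p 0.708), where no feature passed, and 0.62 within slide 2 (adjusted p 0.342). With the mean of all Sptb features it was 0.40 (adjusted p 0.427). Of the other 3 features of Sptb 2 lay at background on all arrays and 1 was above the bound on wild type 4 alone. Ermap, an erythroblast membrane protein that carries a blood group, was above the bound on lymphoma 1 (7.36) and on wild type 2, 3 and 4 (7.96, 7.46 and 7.42). Lymphoma 2 to 4 read 6.60, 6.50 and 6.25 and wild type 1 read 6.97, and the difference was -0.78 ± 0.29 (adjusted p 0.234). It was -0.49 within slide 1 and -1.06 within slide 2 (adjusted p 0.0491). Rhd, of the Rh blood group complex, was above the bound on lymphoma 1 and wild type 2 and 4, at 7.35, 7.53 and 7.31. Epb42, the protein 4.2 of the membrane skeleton, and Rhag, the partner of Rhd, lay at background on every array, with levels of 6.13 to 7.12 and 6.40 to 7.17 in lymphoma and of 5.80 to 6.97 and 6.30 to 7.02 in wild type.

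Of the remaining erythroid members, Hemgn, a nuclear protein of blood progenitors that GATA1 activates, was above the bound on all 4 controls and on lymphoma 1 and 2. It read 7.36, 7.50, 6.54 and 6.25 in lymphoma and 7.26, 8.43, 7.41 and 7.76 in wild type, a difference of -0.80 ± 0.34 (adjusted p 0.306). Of its other 3 features 2 lay at background on all arrays and 1 was above the bound on 2 arrays, so the difference rests on a single feature. Tspan33, a tetraspanin of erythroblasts that activated B cells also express, read 7.73, 7.56, 7.74 and 7.69 in lymphoma and 7.54, 8.22, 8.61 and 8.13 in wild type. The lymphomas were close together (SD 0.081), the controls less so (SD 0.44), and wild type 1 was again the lowest control. The difference was -0.44 ± 0.24 (adjusted p 0.436). The other feature of Tspan33 lay at background on all arrays. Trim10, a ubiquitin ligase family member of terminal erythroid cells, read 6.38 to 7.29 in lymphoma and was above the bound on wild type 4 alone, at 7.41.

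Of the members that encode platelet granule proteins, integrins and glycoproteins, only Itgb3 was above the bound on more than 3 arrays. Pf4 and Ppbp, the granule chemokines, ranged over 6.32 to 7.22 and 6.09 to 7.02 in lymphoma and over 6.40 to 7.06 and 6.15 to 7.24 in wild type. Itga2b, the αIIb chain that defines the lineage, stayed between 6.66 and 6.92 in lymphoma and between 6.19 and 6.67 in wild type. Gp5, a subunit of the von Willebrand factor receptor, Gp6, the collagen receptor, and Treml1, a receptor of platelet granules, also lay below the bound on all 8 arrays. Gp1bb and Gp9, subunits of the von Willebrand factor receptor, were above it on wild type 1 and 2 (7.18 and 7.53) and on wild type 2 (7.53). Gp9 read 6.07 to 6.89 in lymphoma and 6.92 to 7.53 in wild type (adjusted p 0.335). With 7 of the 8 values at background no fold is given.

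Itgb3 encodes the β3 chain. The protein pairs with αIIb on platelets and with αv on other cells, macrophages among them. Its brightest feature read 8.20, 7.93, 8.23 and 8.46 in lymphoma and 8.58, 9.20, 9.03 and 9.15 in wild type, so that the groups did not overlap. The means were 8.20 ± 0.22 in lymphoma and 8.99 ± 0.28 in wild type (SD), a 1.72-fold lower intensity in lymphoma (log2 difference -0.78 ± 0.22 SE, adjusted p 0.113). Both slides gave a like value, -0.83 on slide 1 and -0.74 on slide 2, and leaving out wild type 1 gave -0.92 (adjusted p 0.0282). The other Itgb3 feature read 7.24, 7.01, 7.89 and 7.56 in lymphoma and 7.39, 10.80, 10.24 and 10.34 in wild type. Here wild type 1 lay among the lymphomas and the other controls lay above both, and the difference was -2.27 ± 0.60 (adjusted p 0.0913). Leaving out wild type 1 gave -3.04 ± 0.27 (adjusted p 9.58e-05), and within slide 2 it was -2.57 (adjusted p 0.0114). The partner chain Itga2b was at background in both groups, as given above.

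**Figure D3:**
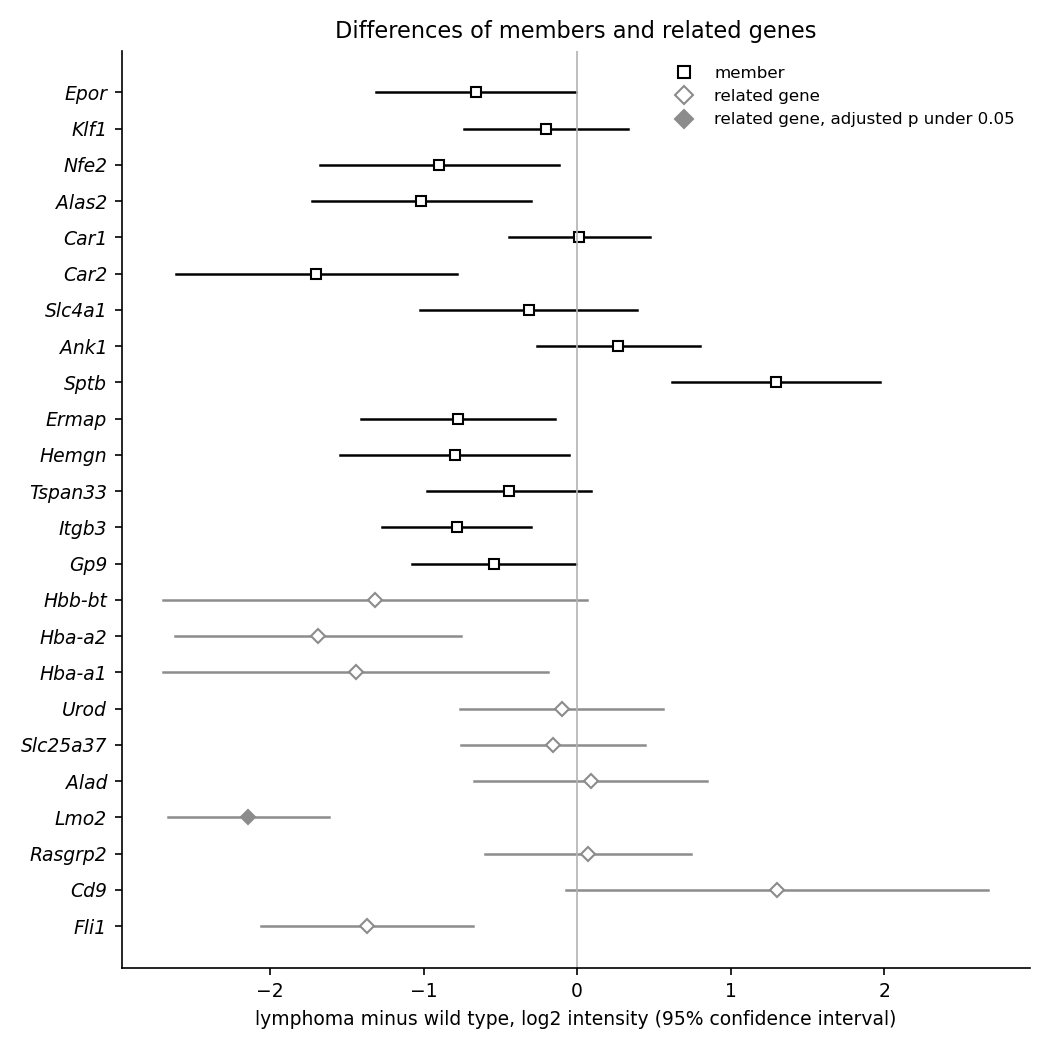
Lymphoma minus wild type difference in log2 intensity with its 95% confidence interval (n = 4 in each group), for 14 members (squares) and 10 related genes (diamonds). The filled symbol marks Lmo2, at -2.14, as the only gene drawn with an adjusted p under 0.05. Car2 lies at -1.70 and Sptb at 1.29, and for Gp9 and Sptb 1 group lies wholly at background, so their symbols do not give a measured size.

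Related genes outside the set were read from lists of the same lineages. Globins were measured by 6 of the 9 listed genes, and the adult globins were far above background on every array. Hba-a1, an alpha globin, read 11.17, 10.95, 10.25 and 11.99 in lymphoma and 10.83, 12.20, 13.13 and 13.97 in wild type. Wild type 1 again lay among the lymphomas, and the difference was -1.44 ± 0.57 (adjusted p 0.268). Hba-a2, the other adult alpha globin, averaged 11.30 ± 0.62 in lymphoma and 12.99 ± 0.89 in wild type (SD). It differed by -1.69 ± 0.43 (adjusted p 0.0787), or by -2.12 with wild type 1 left out (adjusted p 0.00281). Hbb-bt, a beta globin, differed by -1.32 ± 0.63 (adjusted p 0.368). With wild type 1 left out, Hba-a1 and Hbb-bt differed by -2.01 and -1.99 (adjusted p 0.0212 and 0.0227). Within slide 1 Hba-a1, Hba-a2 and Hbb-bt differed by -0.45, -1.17 and -0.27. Adult globin genes are near-identical copies, and their features cannot be assigned to 1 copy with certainty. No globin passed in limma with all 8 arrays. At an unadjusted p under 0.05 there were 2 of 6, both lower in lymphoma. Over all genes 15.9% reached that level, and 7.73% did so with a lower lymphoma mean. The median of the list was -0.81, which mixes adult globins with embryonic globins at or near background. Of the embryonic globins, Hbb-y and Hba-x lay at background on all arrays, and Hbb-bh1 was above the bound on 5, reading 6.23 to 7.27 in lymphoma and 6.50 to 7.63 in wild type.

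Genes of heme synthesis and mitochondrial iron import, which B cells use as well, gave 0 calls among 10 measured, with a median of -0.06. At an unadjusted p under 0.05 there were 3, of which 2 were higher and 1 lower in lymphoma, against 15.9% of all genes. The brightest heme genes were Urod (difference -0.10), Slc25a37, the mitochondrial iron importer mitoferrin-1 (-0.16), and Alad (0.09). Of 20 other erythroid genes 1 passed. Lmo2, a cofactor that bridges TAL1 and GATA1 in erythroid cells and is also active in B cells, fell to 8.62 ± 0.37 in lymphoma, against 10.76 ± 0.21 in wild type (SD, n = 4), a difference of -2.14 ± 0.24 (SE, adjusted p 0.00382). Within slide 1 alone Lmo2 differed by -2.31 (adjusted p 0.708), in a fit with n = 2 in each group where no feature passed. The median of this list was -0.01. Of 26 other megakaryocyte and platelet genes none passed in limma, 4 reached an unadjusted p under 0.05, all lower in lymphoma, and the median was -0.13. Fli1, a transcription factor of megakaryocytes that B cells also express, read 11.25 to 11.77 in lymphoma and 12.22 to 13.82 in wild type (difference -1.37 ± 0.31, adjusted p 0.0550). It passed with wild type 1 left out (-1.59, adjusted p 0.00947). Cd9, a tetraspanin of platelets and of some B cells, differed by 1.30 (adjusted p 0.375), with 14.00 in wild type 1 and at most 11.39 in the other controls. With wild type 1 left out, it differed by 2.07 (adjusted p 0.00412). Rasgrp2, an exchange factor for Rap1 in platelets and lymphocytes, differed by 0.07.

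Among markers of other cells, the median difference was -1.38 for spleen macrophages and -0.81 for granulocytes. It was 0.09 for B cells, -0.20 for T cells, 0.001 for stem and progenitor cells and 0.06 for proliferation. All 10 spleen macrophage markers had lower lymphoma means, and 3 passed: C1qa, C1qb and Vcam1. Over all 19087 genes, 8270 had a lower lymphoma mean, 2.09% passed, and 1.27% passed as lower in lymphoma. The mean level of the macrophage list ranged from 10.04 to 11.26 in lymphoma and from 11.03 to 12.65 in wild type. Granulocyte markers ranged from 7.79 to 8.96 in lymphoma and from 9.49 to 10.19 in wild type over 5 detected genes, and 1 of 8 measured passed, S100a8. Elane and Mmp8 of that list lay at background. The mean of the 4 detected globins ranged from 9.93 to 10.95 in lymphoma and from 10.24 to 12.55 in wild type. The lowest control was wild type 1 for the globins and wild type 2 for the macrophage markers. B cell markers ranged from 11.89 to 12.01 in lymphoma and from 11.72 to 12.61 in wild type, and none of the 7 passed. T cell markers ranged from 8.96 to 9.64 in lymphoma and from 9.14 to 9.85 in wild type over 5 genes. Of 7 measured 1 passed, Cd2, which was higher in lymphoma, while 5 of the 7 had lower lymphoma means. The 2 detected stem and progenitor genes ranged from 8.52 to 9.78 in lymphoma and from 9.40 to 9.66 in wild type, and the 8 proliferation genes from 9.71 to 10.47 and from 9.56 to 10.33. Cd34 lay at background throughout, and Kit was above the bound on lymphoma 4 and wild type 4 alone. The part of macrophages and granulocytes in the differences of Car2, Alas2, Itgb3 and the globins was not tested.

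**Figure D4:**
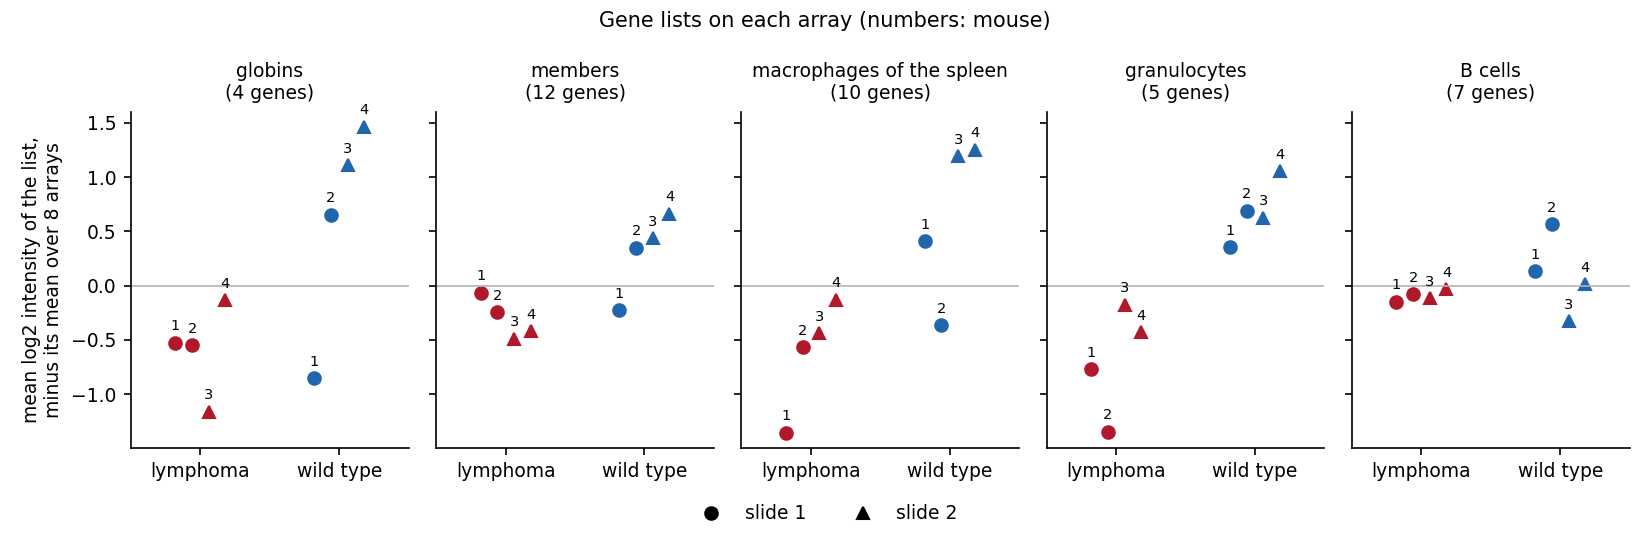
Mean log2 intensity of 5 gene lists on each array, less the mean of that list over the 8 arrays, lymphoma left and wild type right, circles for slide 1 and triangles for slide 2, with the number of the mouse. Only genes above the background bound on at least 4 arrays enter. Wild type 1 is the lowest control for the globins (10.24 before centering), and wild type 2 for the macrophage markers (11.03).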

How the data were processed

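Array intensities of polyA RNA from B splenocytes of 4 lymphoma and 4 wild type mice were used. The authors deposited log2 intensities for 45220 features, while the sources used here state no scanner, background correction or normalization. The platform annotation names a gene for 33709 of them. Of these, 33653 had 1 symbol, and 33517 matched RefSeq genes of GRCm38.p6 (names only, 0 symbols changed). Their 75th percentiles spread over 0.215 between arrays and were made equal over the listed features.

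Differences were tested with limma 3.58.1 (R 4.3.3; lmFit and eBayes, group as the only term, two-sided, Benjamini-Hochberg over all 33709 features), and a call is an adjusted p under 0.05. The fit was tested on simulated data. The labels number the mice 1 to 4 in each group. Same-numbered arrays did not deviate together (correlations 0.175, -0.038, 0.133 and -0.020), so the numbers were not taken as pairs. Where a group lies wholly at background, the fold is given as at least the mean of the brighter group over the higher of bound and signal. The members, lists and bound were chosen with earlier results of these data known. Values of every array are given for members above the bound on at least 4 arrays. Of each related list up to 3 called genes are named, or else the 3 brightest. The values of Sptb by array, Ms4a1, Pax5, Cd22, Cd79b, Hbb-bh1 and the markers named as at background (Hbb-y, Hba-x, Elane, Mmp8, Kit, Cd34) were chosen after seeing the data. Promoter windows are RefSeq's. Alternatives were other scalings, a filter, a floor, other variance models, slide and replicate number as blocks, single slides, the mean of all features, and leaving out each array.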

Additional observations from a re-analysis of the deposited data

Results flagged for a closer look

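In groups of 4, an array was singled out where its gap to the nearest of the others, over the range of the group, exceeded Dixon's 95% critical value. Of 48 groups of values (24 named genes, each by its brightest feature), 1 met this, where chance flags about 1 in 20. The other Itgb3 feature, with wild type 1 at 7.39 and the other controls at 10.24 to 10.80, was not among the 48 groups. Only brightest features entered, so the rule was not applied to it. The group that met it was wild type for Alad, a heme synthesis enzyme, which read 12.95 in wild type 1, against 11.47 to 11.63 in the other controls.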

How the results depend on the processing

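No member passed under quantile normalization, the deposited values, median scaling, the filter, the floor, the slide as a block, slide 1 alone or the mean of features. Counts were 2 with trend and robust estimation (Car2, Sptb), 5 with array weights (Epor, Alas2, Car2, Sptb, Itgb3), 3 within slide 2 (Nfe2, Car2, Ermap) and 1 with the replicate number as a block (Car2, adjusted p 0.0393). Leaving out 1 array gave 0 to 3, with 1 without lymphoma 3 and 3 without wild type 1. The cause of these changes was not tested. Globins gave 1 with trend and robust estimation, 2 with array weights and 0 to 3 without 1 array, and heme genes 0 to 1, the highest in both without wild type 1. Other erythroid genes gave 4 with array weights, 2 with either block, 0 within slide 1, 3 within slide 2 and 1 to 3 without 1 array (3 without wild type 1). Other megakaryocyte genes gave 1 in 6 settings (deposited values, median scaling, the filter, trend and robust estimation, the replicate block, the mean of features), 2 with array weights, 3 within slide 2 and 0 to 2 without 1 array (2 without wild type 1, 1 without wild type 2). All features gave 557 calls, 2128 with array weights, 0 within slide 1, 1949 within slide 2, and 84 (without lymphoma 4) to 2317 (without wild type 1) with 1 array left out. The sign of the Nfe2 difference, -0.90 over all arrays, turned within slide 1 (0.087). Smaller differences turned within slide 1 for Klf1 (0.27), Slc4a1 (0.39), Slc25a37 (0.067), Rasgrp2 (-0.47) and Car1 (-0.16), within slide 2 for Ank1 (-0.058) and Urod (0.29), with deposited values for Car1 (-0.058) and Rasgrp2 (-0.0023), with array weights for Urod (0.25), and with the mean of features for Alad (-0.077) and Rasgrp2 (-0.12). Without 1 array, Car1 ranged over -0.083 to 0.13, Urod over -0.34 to 0.12, Slc25a37 over -0.28 to 0.018, Alad over -0.051 to 0.44 and Rasgrp2 over -0.13 to 0.32. Of 275 member values under 20 alternatives, 251 kept sign and side of the threshold. With the stricter background bound 4 members, not 12, were read on at least 4 arrays. Values near the bound have little signal over background, which limits members at background.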
